A study of Homo sapiens with 4 samples.

Results

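The ZNF genes described here are those with a symbol of ZNF plus digits, with or without a closing letter, in tables of RNA co-precipitated with beta-catenin, leaving out transcripts whose source class is a pseudogene. By this rule, which uses names and no measured value, 142 of 9880 listed transcripts (1.44%) were ZNF transcripts in HT-29, from 97 genes. In CaCo-2 they were 180 of 11943 (1.51%), from 140 genes. HT-29 and CaCo-2 are established human colon adenocarcinoma lines, for which the labels give no treatment. RNA immunoprecipitation sequencing (RIP-Seq) collects a protein with an antibody and sequences the RNA that comes with it, here with a beta-catenin antibody on nuclear lysate. A RIP library and an input library made without antibody were sequenced once per line, so no fold below has a replicate check and no test of a fold was made. The control with another antibody was not analysed here.

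Most ZNF genes encode C2H2 zinc finger proteins, in which tandem fingers read DNA sequence, and many carry a KRAB domain. KRAB zinc finger proteins recruit TRIM28 (KAP1), which brings the histone methyltransferase SETDB1 and HP1 proteins, and they are known for silencing transposable elements. In human, RefSeq places 246 of 509 protein-coding ZNF genes on chromosome 19, many of them in gene clusters. The mRNAs of the family are generally scarce. Beta-catenin, whose co-precipitated RNA was measured, is the co-activator of Wnt signalling, a pathway that is constitutively active in most colon cancers.

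Levels are the authors' FPKM, which scale fragments by transcript length and library size, for single Ensembl transcripts. The tables list only transcripts at least 1.5-fold higher in the RIP, so every member lies on that side and the direction is no result. A ratio here compares RIP with input on the log2 scale after 1 FPKM was added to both. It was used where at least 1 library of a line reached 1 FPKM, which kept all 142 members in HT-29 cells and 145 of 180 in CaCo-2. The lowest RIP level in the whole table was 1.31 FPKM for HT-29 and 0.842 FPKM for CaCo-2, so this filter could remove no HT-29 transcript. Levels, gene counts, listed shares and sharing compared between the lines are to be read with these unequal floors. A transcript with an input of 0 reaches 2-fold on this scale once it passes that filter, and one with an input of 1 FPKM needs 3 FPKM in the RIP. Of 11 colon epithelium markers, 7 were listed in HT-29 cells and 5 in CaCo-2, with KRT18 at 54.3 FPKM in RIP and 14.7 FPKM in input of HT-29. Of 7 markers of other cell types, none was listed in HT-29 cells and only ALB in CaCo-2, with 14.9 FPKM in RIP and 0.0983 FPKM in input over 3 transcripts. An unlisted marker says nothing of its level. Reads of recent ZNF duplicates can be shared between copies, and how the authors split them is not given in the sources used here, so values of single paralogs are uncertain. Positions are those of the deposited tables, on hg19 and counted from 1. Levels in bulk RNA do not tell fewer expressing cells from less RNA per cell.

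Median levels of listed ZNF transcripts were low in all 4 libraries, but in the CaCo-2 input hardly below that of all listed transcripts. Listed input levels are also bounded by the 1.5-fold rule of the tables. In HT-29 their median was 2.0 FPKM in RIP and 0.49 FPKM in input, against 2.45 and 0.60 FPKM for all listed transcripts. In CaCo-2 it was 1.5 FPKM in RIP and 0.55 FPKM in input, against 1.73 and 0.56 FPKM for all listed transcripts that passed the filter. In the HT-29 RIP, 13 of 142 ZNF transcripts reached 4 FPKM (9.15%, against 26.4% of all listed transcripts), of which 6 passed 2-fold (46.2%, where the share of all such transcripts was 58.9%). In the CaCo-2 RIP 5 of 145 did (3.45%, against 12.6% of all kept transcripts), none past 2-fold, where the share of all such transcripts was 51.4%. The highest in both RIP libraries was ZNF217. High levels also stood beside high input, as for a ZNF609 processed transcript with 6.53 FPKM in RIP and 4.05 FPKM in input of HT-29, and a ZNF767 retained-intron transcript with 4.78 FPKM in RIP and 2.71 FPKM in input of CaCo-2. Input was listed at 0 for 42 members in HT-29 cells (29.6%, against 31.8% of all listed transcripts) and for 30 of those kept in CaCo-2 (20.7%, against 26.5%).

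In HT-29, 70 of 142 ZNF transcripts were 2-fold or more above input in the RIP (49.3%, 95% Wilson interval 41.2 to 57.4), where the share among all listed transcripts was 56.0%. In CaCo-2 this held for 47 of 145 (32.4%, interval 25.3 to 40.4), where the share among all listed transcripts was 40.8%. The intervals cover counting error only, and transcripts of 1 gene are not independent. The median log2 ratio was 0.96 for HT-29 ZNF transcripts, against 1.14 for the whole table, and 0.70 for CaCo-2 ones, against 0.82. Where input was above 0, 28 of 100 HT-29 members passed 2-fold (28.0%, with 35.5% of all such transcripts) and 17 of 115 CaCo-2 members (14.8%, with 19.5%). The gap to the whole table was not seen in every measure. By the fold of the authors' deposited table, which adds no pseudocount and exists where input is above 0, 68 of 100 ZNF transcripts reached 2-fold in HT-29 (68.0%, against 66.5% of all listed transcripts). In CaCo-2, 69 of 115 did in the authors' deposited table (60.0%, against 61.0%). In the authors' deposited table the median fold of HT-29 ZNF transcripts was 2.44, against 2.46 for the whole table, and that of CaCo-2 ones was 2.20, against 2.21.

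With at least 1 FPKM in both libraries, where the pseudocount weighs less, 3 of 36 ZNF transcripts reached 2-fold in HT-29 (8.33%), and the share of all such transcripts was 25.2%. In CaCo-2 it was 1 of 23 (4.35%), and the share of all such transcripts was 13.1%. Where input had at least 1 FPKM and the RIP at least 3 FPKM, so that the 2-fold line could be reached, the counts were 3 of 15 in HT-29 cells (20.0%, against 35.2% of all such transcripts) and 1 of 9 in CaCo-2 (11.1%, against 23.8%). The median RIP level in this subset was 4.14 FPKM for ZNF transcripts and 5.80 FPKM for the others in HT-29. In CaCo-2 it was 4.78 FPKM for ZNF transcripts and 4.63 FPKM for the others. The fold of the authors' deposited table, free of a pseudocount, had a median of 1.67 for ZNF transcripts with at least 1 FPKM in both HT-29 libraries, against 1.95 for all such transcripts. In the authors' deposited table for CaCo-2 it was 1.74 for ZNF transcripts, against 1.82. These counts of ZNF transcripts are small, and no test of them was made.

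**Figure D1:**
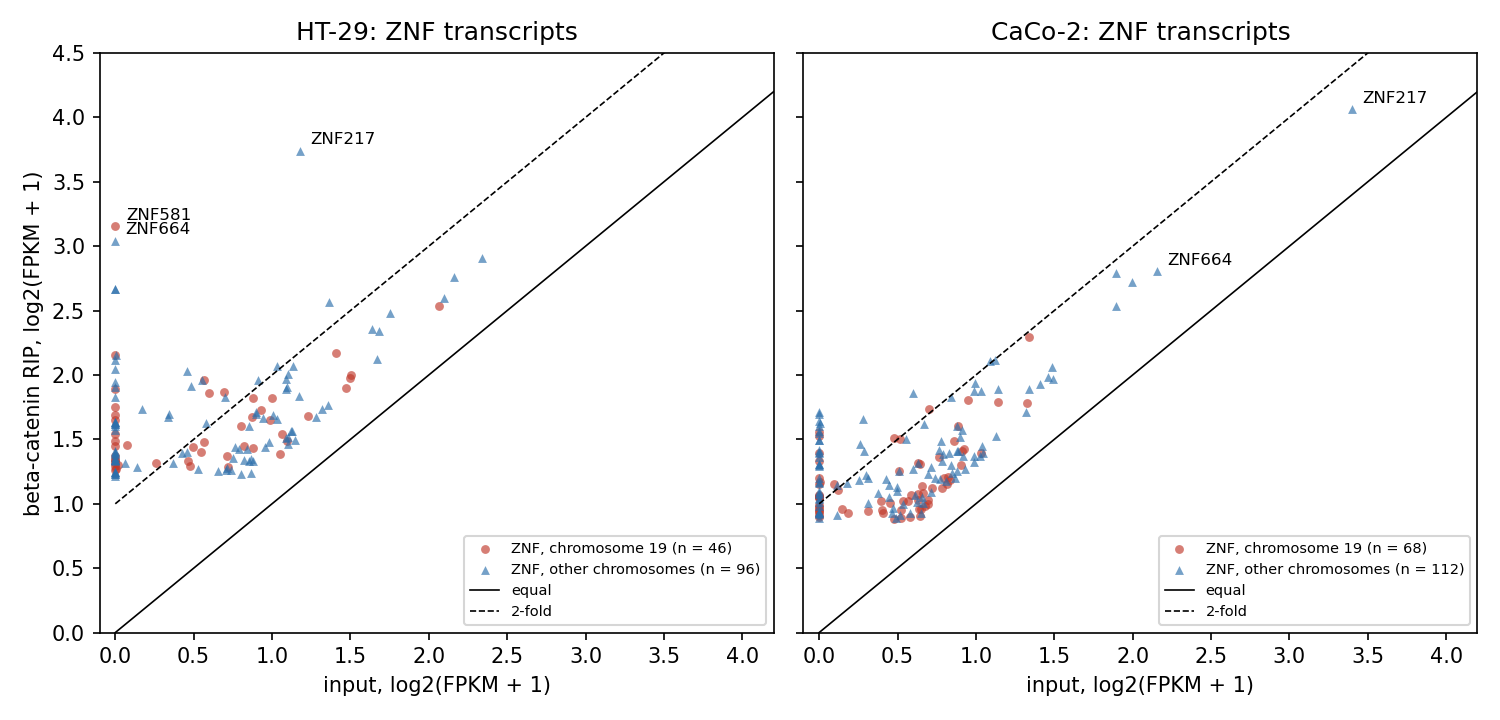
RIP level against input level of every listed ZNF transcript, both as log2 of FPKM plus 1, in HT-29 cells (left) and CaCo-2 (right). Each point is 1 transcript, circles on chromosome 19 and triangles elsewhere, with lines of equality and of a 2-fold ratio. Most points lie below 4 FPKM in RIP, and ZNF217 is the highest, with 12.4 FPKM in RIP of HT-29 and 15.7 FPKM in RIP of CaCo-2.

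ZNF217, a component of CoREST and CtBP co-repressor complexes that is amplified in several carcinomas, stood apart from the other members by level. Its transcript ENST00000371471 (hg19 chromosome 20, 52183603 to 52210378, minus strand, protein-coding) had 12.4 FPKM in RIP and 1.27 FPKM in input of HT-29 (log2 ratio 2.56). The same transcript had 15.7 FPKM in RIP and 9.57 FPKM in input of CaCo-2 (log2 ratio 0.66). The authors' deposited table gives folds of 9.77 in HT-29 cells and 1.64 in CaCo-2, with q-values of 1.21e-05 and 0.0408. The RIP levels of the lines lay within 1.27-fold of each other, while the input level was 7.55-fold higher in CaCo-2. The lines' tables were normalised separately, so these between-line folds were not tested. A second isoform, ENST00000437222, was listed in CaCo-2 alone, with 1.22 FPKM in RIP and 0.0826 FPKM in input.

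Among the other members with at least 1 FPKM in both HT-29 libraries, the highest ratios belonged to 2 transcripts of ZNF384, a transcription factor known as a fusion partner in acute leukaemia, and to ZNF655. ZNF384 ENST00000355772 had 4.92 FPKM in RIP and 1.58 FPKM in input (log2 ratio 1.20), and ENST00000540915 had 3.20 FPKM in RIP and 1.20 FPKM in input (0.93). ZNF655 had 3.19 FPKM in RIP and 1.04 FPKM in input (1.03). With ZNF217, the first ZNF384 transcript and ZNF655 were the only members past 2-fold in this subset. Below the line came ZNF862 with 3.03 FPKM in RIP and 1.14 FPKM in input, a retained-intron transcript of ZNF692 with 2.92 FPKM in RIP and 1.13 FPKM in input, and ZNF138 with 2.75 FPKM in RIP and 1.14 FPKM in input. ZNF410, an activator of CHD4 transcription, had 2.71 FPKM in RIP and 1.13 FPKM in input. For all of these except ZNF217, the q-value in the authors' deposited table was above 0.05.

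In CaCo-2 the only member past 2-fold in that subset was a retained-intron transcript of ZNF511, with 3.31 FPKM in RIP and 1.13 FPKM in input (log2 ratio 1.02). A retained-intron transcript of ZNF346, which encodes a double-stranded RNA binding protein, followed with 3.33 FPKM in RIP and 1.18 FPKM in input (0.99). ZNF160, a KRAB member on chromosome 19 (53573325 to 53588637), had 3.92 FPKM in RIP and 1.53 FPKM in input (0.96). ZNF638, whose protein binds the HUSH silencing complex and takes part in splicing, had a processed transcript at 5.93 FPKM in RIP and 2.72 FPKM in input (0.90). ZNF644, a partner of the H3K9 methyltransferases EHMT1 and EHMT2, had 2.67 FPKM in RIP and 1.05 FPKM in input (0.84). ZNF721 had 2.70 FPKM in RIP and 1.21 FPKM in input, and ZNF124, a KRAB member, had 5.61 FPKM in RIP and 2.98 FPKM in input. Of the genes just named for HT-29, only ZNF217 was also among the 8 highest in CaCo-2, where it came last. This is no result about the lines, since only 1 ZNF transcript, that of ZNF217, had at least 1 FPKM in all 4 libraries. No other transcript could be in both lists.

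**Figure D2:**
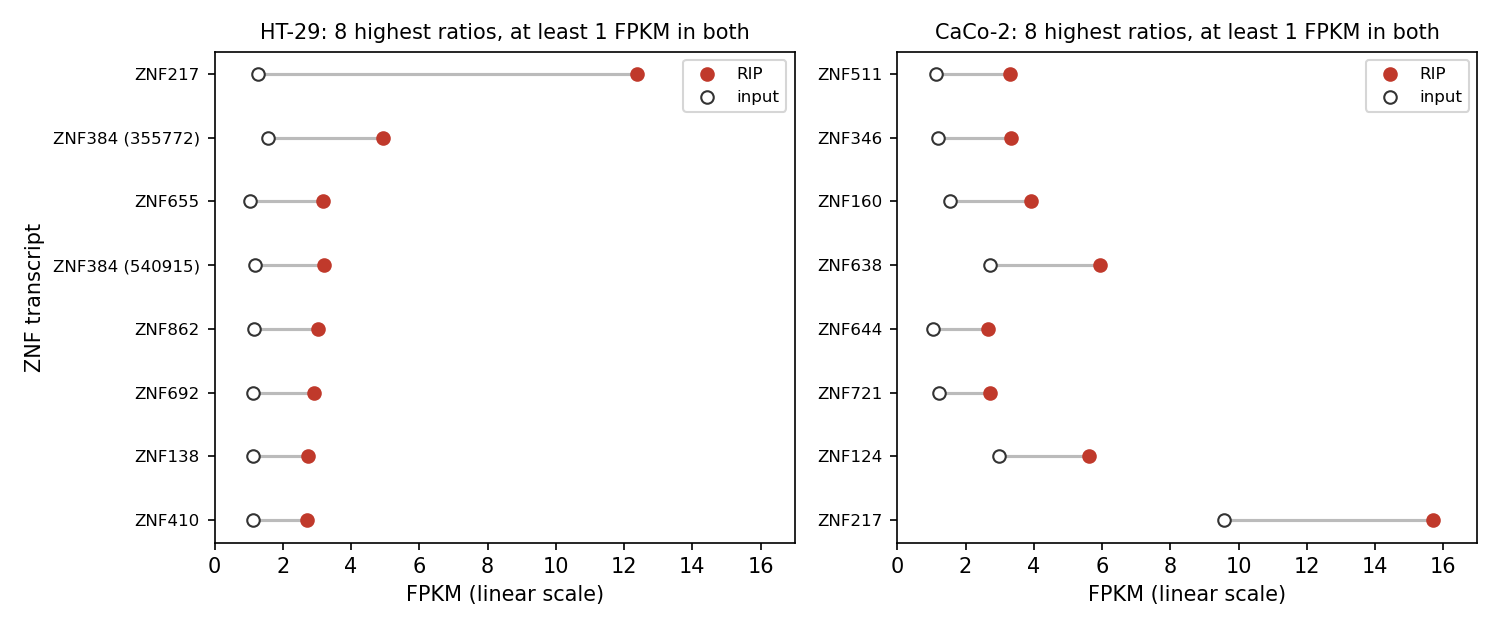
RIP (filled) and input (open) FPKM, on a linear scale, of the 8 ZNF transcripts with the highest ratio among those that reached 1 FPKM in both libraries, in HT-29 (left) and CaCo-2 (right). Numbers in parentheses are the last digits of the transcript identifier where a gene appears more than once. ZNF217 leads in HT-29 with 12.4 FPKM in RIP and 1.27 FPKM in input, and is last in CaCo-2 with 15.7 FPKM in RIP and 9.57 FPKM in input.

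The members with input listed at 0 held most of the members' low q-values in the authors' deposited table. This is no trait of ZNF transcripts, since it also held over all protein-coding transcripts, as given below. In that table, q was at or below 0.05 for 8 of 142 members in HT-29 (5.63%), and the share of all listed transcripts was 3.08%. In CaCo-2 it was 8 of the 145 kept members in the authors' deposited table (5.52%), and the share of all kept transcripts was 2.46%. All 8 in HT-29 cells and 7 of the 8 in CaCo-2 were protein-coding (8.70% of that class in HT-29 cells, against 4.53% of all its transcripts, and 7.69% of that class in CaCo-2, against 4.84%). That class held 64.8% of ZNF transcripts and 49.4% of the others of HT-29, and 63.3% against 42.7% for CaCo-2. Among protein-coding transcripts with input at 0, the authors' deposited table has q at or below 0.05 for 7 of 23 ZNF transcripts in HT-29 (30.4%, against 10.4% of all such transcripts). In CaCo-2 it has 6 of 17 (35.3%, against 13.9%). Over the whole protein-coding class, most low q-values of the authors' deposited table also stood beside an input of 0. For HT-29, 222 transcripts of the class had such a q, and input was at 0 for 140 of them. For CaCo-2, 214 kept transcripts of the class had such a q, with input at 0 for 150. The authors' q-values come from 1 library a side, so they compare those libraries and not the conditions.

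In HT-29, ZNF800, which represses enteroendocrine differentiation in human gut organoids, had 3.34 FPKM in RIP with input at 0, and the authors' deposited table gives q = 1.38e-05. ZNF398 had 1.63 FPKM in RIP with input at 0 (q = 0.00056 in the authors' deposited table). ZNF664 ENST00000392404 had the highest level of this kind, 7.25 FPKM in RIP with input at 0 (q = 0.000989 in the authors' deposited table). ZNF239, ZNF277, ZNF133 and ZNF827 had 2.11, 3.13, 1.64 and 1.34 FPKM in RIP, each with input at 0, and q between 0.00623 and 0.0416 in the authors' deposited table. ZNF827 is known for recruiting the NuRD complex to telomeres. Higher RIP levels than for most of these stood beside an input of 0 for processed transcripts of ZNF740 and ZNF664, with 5.36 FPKM each, and for ZNF816 on chromosome 19 (53455003 to 53466124) with 3.46 FPKM. Their q-values in the authors' deposited table lay above 0.05. The ZNF664 processed transcript overlaps CCDC92 on the opposite strand. Strandedness of the libraries is not given in the sources used here, so reads of the pair cannot be told apart.

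In CaCo-2, a retained-intron transcript of ZNF3 had 2.04 FPKM in RIP with input at 0, and the authors' deposited table gives q = 0.000537. ZNF839 had 1.12 FPKM, ZNF623 1.67 FPKM and ZNF691 1.47 FPKM in RIP, each with input at 0 and with q between 0.000644 and 0.00381 in the authors' deposited table. ZNF384 had 1.63 FPKM in RIP with input at 0, by another transcript than in HT-29 (q = 0.0139 in the authors' deposited table). ZNF385A, which encodes a p53 cofactor that binds RNA, had 1.47 FPKM in RIP with input at 0 (q = 0.0239 in the authors' deposited table). ZNF57 on chromosome 19 (2907105 to 2918344) had 1.08 FPKM in RIP with input at 0 (q = 0.038 in the authors' deposited table). The highest RIP levels with input at 0 were 2.25 FPKM for a ZNF518A processed transcript and, on chromosome 19, 1.95 FPKM for ZNF525 and 1.88 FPKM for ZNF616. A transcript at 0 in input can belong to a gene with other transcripts in input. ZNF664 in CaCo-2 had 6.0 FPKM in RIP and 3.45 FPKM in input for ENST00000337815, beside a retained-intron transcript with 1.95 FPKM in RIP and input at 0.

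A further 8 members that passed the filter in each line had input above 0 and below 0.01 FPKM. ZNF581 had 7.91 FPKM in RIP and 0.000527 FPKM in input of HT-29, and ZNF746, a repressor of PGC-1alpha known as PARIS, had 3.45 FPKM in RIP and 0.00239 FPKM in input. None of the 8 in either line had q at or below 0.05 in the authors' deposited table, where ZNF581 has q = 0.999822 in HT-29. The same held for all 274 other transcripts of this kind in HT-29 and all 258 in CaCo-2, so it is no trait of ZNF transcripts. Without these transcripts the share past 2-fold was 46.3% for HT-29 members, against 54.7% of all listed transcripts, and 28.5% for CaCo-2 members, against 39.2%, a setting chosen after seeing the data.

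Chromosome 19 held 46 of the 142 members in HT-29, from 35 genes, and 68 of the 180 in CaCo-2, from 57 genes. Of 46 chromosome 19 ZNF transcripts in HT-29, 22 passed 2-fold (47.8%), against 48 of 96 on other chromosomes (50.0%), and the share of all chromosome 19 transcripts was 55.5%. In CaCo-2 it was 15 of 48 kept chromosome 19 ZNF transcripts (31.2%), against 32 of 97 elsewhere (33.0%), and the share of all chromosome 19 transcripts was 41.1%. The difference, chromosome 19 minus the rest, was -2.17 percentage points in HT-29 cells (95% interval -19.0 to 14.9) and -1.74 in CaCo-2 (-16.7 to 14.7), for counting error only. Its sign changed with the settings: by the fold of the authors' deposited table it was 14.1 points in HT-29 cells and 2.33 in CaCo-2. The median log2 ratio was 0.95 on chromosome 19, against 1.0 elsewhere, for HT-29 and 0.64, against 0.73, for CaCo-2.

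The chromosome 19 members were the scarcer ones. Their median RIP level was 1.86 FPKM in HT-29 cells, against 2.05 FPKM on other chromosomes, and 1.28 FPKM in CaCo-2, against 1.59 FPKM. Input was listed at 0 for 11 of 46 (23.9%) in HT-29 cells, against 31 of 96 (32.3%) elsewhere, and for 9 of 48 (18.8%) in CaCo-2, against 21 of 97 (21.6%). Over all chromosome 19 transcripts that share was 31.1% for HT-29 and 27.2% for CaCo-2. None of the 9 chromosome 19 members with at least 1 FPKM in both HT-29 libraries reached 2-fold, against 3 of 27 elsewhere, and none of 4 did in CaCo-2, against 1 of 19. Over all chromosome 19 transcripts of that subset it was 24.6% for HT-29 and 14.9% for CaCo-2. With an input of 1 FPKM or more, 2-fold needs at least 3 FPKM in the RIP. Members below that could not pass, such as ZNF841 with 2.94 FPKM and ZNF562 with 2.72 FPKM in the HT-29 RIP. The counts of 0 are thus partly set by RIP level. In the authors' deposited table, q was at or below 0.05 for 0 of 46 chromosome 19 members in HT-29 cells, against 8 of 96 elsewhere. In CaCo-2 the authors' deposited table has 1 of 48 kept members on chromosome 19, ZNF57, against 7 of 97 elsewhere. Over all chromosome 19 transcripts the authors' deposited table has such a q for 2.16% of HT-29 and 2.45% of CaCo-2 transcripts, so the counts of 0 and 1 lie near the background of that chromosome. No test of these differences was made. ZNF233 on chromosome 19, with 0.860 FPKM in the CaCo-2 RIP, also has a q below 0.05 in the authors' deposited table and did not pass the filter, so that 9 of 180 listed members have such a q there (5.0%, with 2.24% of all listed transcripts).

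The share of ZNF genes that were listed at all was lower for chromosome 19, a difference that was not tested. Of 246 protein-coding ZNF genes that RefSeq places on chromosome 19, 34 were listed in HT-29 cells (13.8%), against 60 of 263 on other chromosomes (22.8%). In CaCo-2 it was 57 of 246 (23.2%), against 81 of 263 (30.8%). Over all protein-coding genes of RefSeq, 24.6% were listed in HT-29 cells and 28.1% in CaCo-2. These last shares were matched by current symbols alone, without the older symbols used for ZNF genes, so they miss renamed genes. A gene may be unlisted because it was low in both libraries or because its RIP was under 1.5-fold above input, and the tables do not tell these apart.

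The listed chromosome 19 members fell into 14 groups when neighbours within 1000000 bases were joined. The largest, from 52076580 to 54083523, held 18 genes, among them ZNF320, ZNF480, ZNF83, ZNF816, ZNF841 and ZNF845, which were listed in both lines. In it 8 of 14 transcripts passed 2-fold in HT-29 cells (median log2 ratio 1.22) and 6 of 11 kept ones in CaCo-2 (1.04). The group of 12 genes from 57752259 to 58984765, near the long-arm end, had 4 of 10 in HT-29 cells (0.95) and 1 of 8 kept in CaCo-2 (0.66). The group of 10 genes from 44100746 to 45004575 had 2 of 3 in HT-29 cells and 2 of 7 kept in CaCo-2. On the short arm, the 7 genes from 7069454 to 9785776 had 2 of 5 in HT-29 cells and 3 of 7 kept in CaCo-2. These counts are to be read beside the share past 2-fold over all chromosome 19 transcripts, 55.5% for HT-29 and 41.1% for CaCo-2. The groups hold few transcripts each and were not tested against each other.

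**Figure D3:**
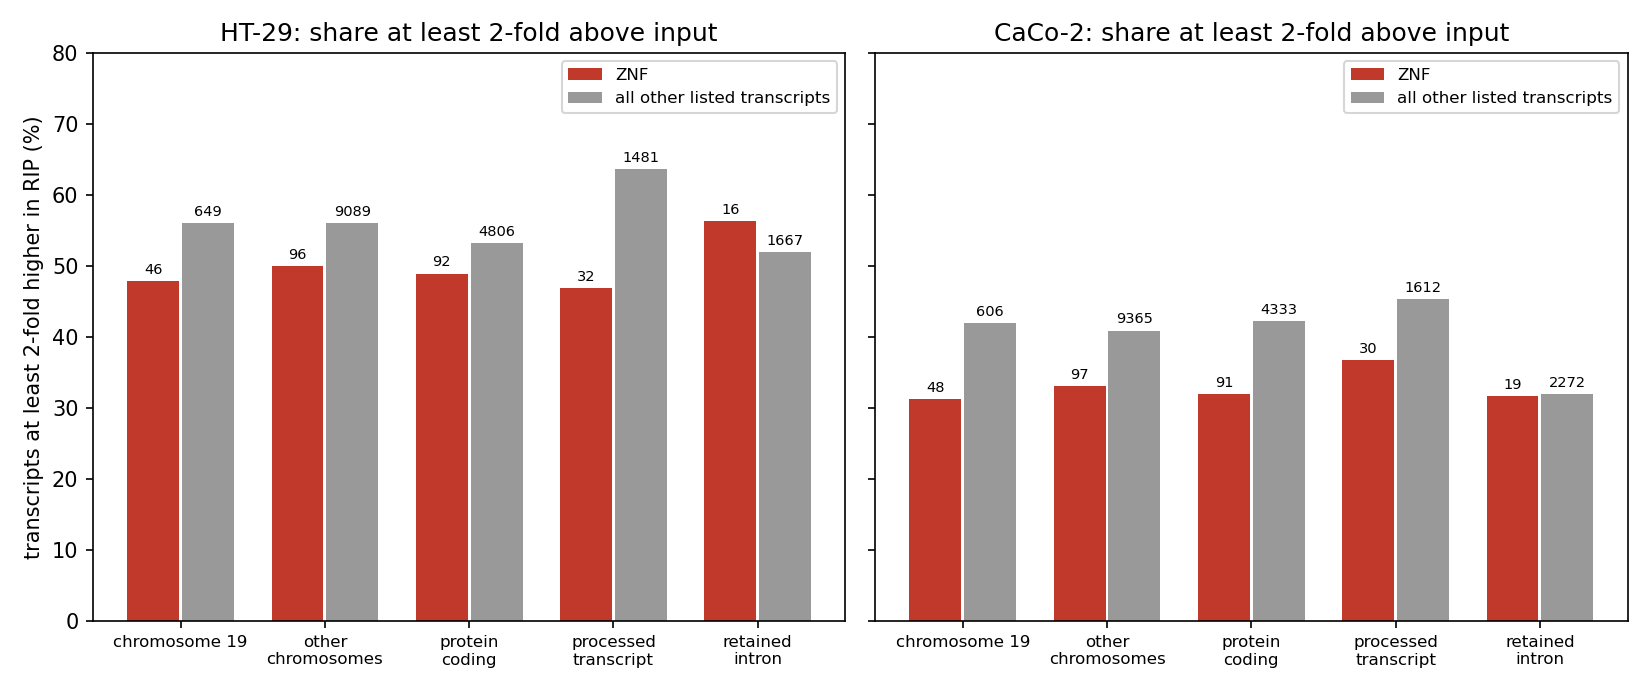
Share of transcripts, in percent, with the RIP at least 2-fold above input on the log2 of FPKM plus 1 scale, for ZNF transcripts (red) and all other listed transcripts (grey) by chromosome and by source class, in HT-29 cells (left) and CaCo-2 (right). The number of transcripts stands above each bar. The ZNF bar is the lower of the pair in every class except retained intron, where it is higher in HT-29 cells and nearly equal in CaCo-2.

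By source class, the 142 HT-29 members were 92 protein-coding transcripts, 32 processed transcripts, 16 retained-intron transcripts and 2 targets of nonsense-mediated decay. The 180 CaCo-2 members were 114, 31, 25 and 8 of these classes, with 1 lincRNA and 1 non-stop decay transcript. Protein-coding ZNF transcripts passed 2-fold in 45 of 92 cases in HT-29 (48.9%), and the share of the whole class was 53.2%. In CaCo-2 they did in 29 of 91 (31.9%), and the share of the whole class was 42.0%. Processed ZNF transcripts did in 15 of 32 in HT-29 (46.9%), with 63.3% for the whole class, and in 11 of 30 in CaCo-2 (36.7%), with 45.1% for the whole class. Retained-intron ZNF transcripts did in 9 of 16 in HT-29 (56.2%), with 52.0% for the whole class, and in 6 of 19 in CaCo-2 (31.6%), with 32.0% for the whole class. Decay targets did in 1 of 2 in HT-29, with 60.3% for the class outside the family, and 1 of 3 in CaCo-2, with 47.4%. The difference, protein-coding minus the other classes, was -1.09 percentage points in HT-29 cells and -1.47 in CaCo-2, and its sign changed with the settings in both lines.

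Several transcripts of 1 gene were listed for 31 ZNF genes in HT-29 cells and 34 in CaCo-2. The log2 ratios within a gene spanned a median of 0.59 in HT-29 cells and 0.46 in CaCo-2, and the widest span was 2.35, for ZNF581 in HT-29. Of 12 HT-29 genes with both a protein-coding and another class, the highest ratio belonged to the other class in 5, as it did in 12 of 20 in CaCo-2. Comparing the highest ratios favours the class with more listed transcripts. Unlike elsewhere, these spans and counts include listed CaCo-2 members that did not pass the filter. ZNF195, a KRAB member on chromosome 11, had 4 transcripts in HT-29, with 2.10, 1.62, 4.06 and 1.36 FPKM in RIP and 0, 0.345, 2.21 and 0 FPKM in input. Its most abundant transcript in the RIP thus had the lowest ratio of the 4. ZNF692 also had 4 in HT-29, its protein-coding one with 2.57 FPKM in RIP and 1.26 FPKM in input and its 3 retained-intron ones with 1.35 to 2.92 FPKM in RIP and 0 to 1.13 FPKM in input. ZNF638 had 4 in CaCo-2, with 2.82 to 5.93 FPKM in RIP and 0.993 to 2.72 FPKM in input, none past 2-fold. In HT-29 its 3 listed transcripts had 1.97 to 2.75 FPKM in RIP and 0 to 0.126 FPKM in input, all past 2-fold. ZNF131, a BTB-domain protein, had 3 protein-coding transcripts in HT-29, at 2.90, 2.90 and 1.65 FPKM in RIP and 0.466, 0.880 and 0.376 FPKM in input. ZNF106, an RNA-binding protein, had 3 in CaCo-2, with 1.21 to 1.61 FPKM in RIP and 0.240 to 0.732 FPKM in input. The reads were divided among overlapping isoforms by the authors' tools, and that division was not tested here.

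The lines shared few ZNF transcripts. Listed in both were 15 transcripts of 14 genes, which is 10.6% of the HT-29 members and 8.33% of the CaCo-2 members, while 1928 transcripts in all were listed in both (19.5% of HT-29 and 16.1% of CaCo-2). By gene name, 49 ZNF genes were shared, 50.5% of those in HT-29 cells and 35.0% of those in CaCo-2, and 35 of the 49 (71.4%) were listed by different transcripts in the lines, as were 55.2% of all 3843 shared gene names. Over all genes the shared shares were 59.2% of HT-29 and 51.6% of CaCo-2. On chromosome 19, 16 genes were shared (45.7% of HT-29 and 28.1% of CaCo-2), against 33 elsewhere (53.2% and 39.8%).

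Of the 15, 12 passed the filter in both lines and 1 passed 2-fold in each line, where the share among all transcripts that passed in both was 30.0%. It was a processed transcript of ZNF280D, ENST00000560298 (hg19 chromosome 15, 57024801 to 57025775, minus strand). It had 2.24 FPKM in RIP and 0.271 FPKM in input of HT-29, and 2.16 FPKM in RIP and 0.212 FPKM in input of CaCo-2. Its log2 ratios were 1.35 in HT-29 cells and 1.38 in CaCo-2, and its q-values in the authors' deposited table were 0.831 and 0.739. The count was 4 of 12 (33.3%) with a pseudocount of 0.1 or 0.5 FPKM, where the share of all such transcripts was 53.5% and 41.3%. ZNF217 was the only transcript with at least 1 FPKM in all 4 libraries.

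RIP levels of the lines lay within 1.5-fold of each other for 9 of the 15 shared transcripts and further apart for 6, in tables that were normalised separately. The same count was not made over all 1928 shared transcripts, so it is not known whether it is usual. The retained-intron transcript of ZNF3 had 1.86 FPKM in RIP and 1.14 FPKM in input of HT-29, and 2.04 FPKM in RIP with input at 0 in CaCo-2. ZNF638 ENST00000377802 had 2.75 FPKM in RIP with input at 0 in HT-29, and 2.82 FPKM in RIP and 0.993 FPKM in input of CaCo-2. Its processed transcript ENST00000486494 had 2.33 FPKM in RIP and 0.126 FPKM in input of HT-29, and 2.92 FPKM in RIP and 1.81 FPKM in input of CaCo-2. In these 3, which belong to the 9, the RIP levels lay close together in the lines while the inputs did not. The inputs also lay apart for ZNF217, ZNF623 and ZNF254, which belong to the 9. ZNF623 had 0.866 FPKM in input of HT-29 and 0 in CaCo-2, and ZNF254 had 0.000284 and 0.787 FPKM. The rest of the 9, ZNF142, ZNF668 and ZNF280D, had close inputs too. ZNF142 had 0.805 FPKM in input of HT-29 and 0.724 FPKM in input of CaCo-2, and ZNF668 had 0.642 and 0.843 FPKM. Among the 6, ZNF800 had 3.34 FPKM in RIP with input at 0 in HT-29, and 0.914 FPKM in RIP and 0.000292 FPKM in input of CaCo-2. ZNF816 ENST00000535506 had 1.74 FPKM in RIP of HT-29 and 0.987 FPKM in RIP of CaCo-2, with input at 0 in both lines. ZNF195 and ZNF692 had RIP levels 2.42-fold and 2.86-fold higher in HT-29, and ZNF239 1.65-fold. The CaCo-2 RIP levels of ZNF800, ZNF816, ZNF692 and ZNF239 lay below 1.31 FPKM, the lowest RIP level listed for HT-29. A level that low could not be listed for HT-29. ZNF581 differed in both libraries, with 7.91 FPKM in RIP and 0.000527 FPKM in input of HT-29, and 2.44 FPKM in RIP and 1.51 FPKM in input of CaCo-2.

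**Figure D4:**
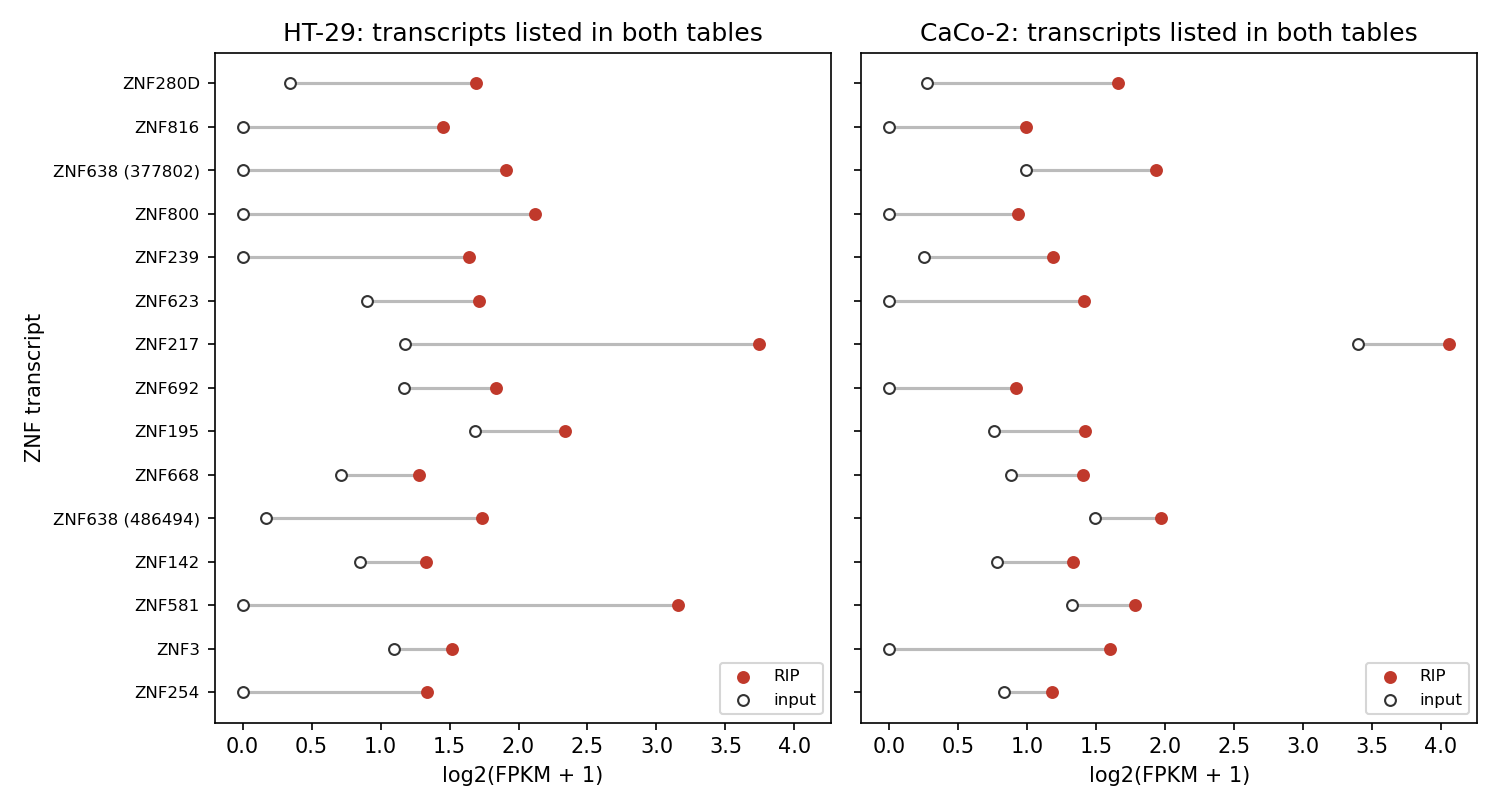
RIP (filled) and input (open) levels, as log2 of FPKM plus 1, of the 15 ZNF transcripts listed in both tables, in HT-29 cells (left) and CaCo-2 (right), ordered by the lower of the ratios of the lines. Numbers in parentheses are the last digits of the transcript identifier. The pairs are similar in both lines for ZNF280D. Input is far apart between the lines for ZNF217, ZNF3, ZNF581, ZNF692 and both ZNF638 transcripts, among others.

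Some proteins with which the family works, or members with known roles, were also counted. Of 25 genes for KRAB silencing partners, 17 were listed in HT-29, with 23 of 33 transcripts past 2-fold (69.7%), and 18 in CaCo-2, with 15 of 36 kept (41.7%), where the shares among all listed transcripts were 56.0% and 40.8%. Input was at 0 for 17 of the 33 HT-29 transcripts (51.5%, against 31.8% of all listed transcripts) and 7 of the 36 CaCo-2 ones (19.4%, against 26.5%). Where both libraries had 1 FPKM or more, 2 of 9 HT-29 and 2 of 8 CaCo-2 transcripts passed, beside 25.2% and 13.1% of all such transcripts. In the authors' deposited table, q was at or below 0.05 for 0 of the 33 HT-29 and 1 of the 36 CaCo-2 transcripts. The shares of all kept transcripts were 3.08% and 2.46%. None of the partner transcripts named next had such a q. TRIM28, the hub of KRAB silencing, had 5.25 FPKM in RIP with input at 0 in HT-29 for ENST00000593582, and 6.17 FPKM in RIP and 0.702 FPKM in input of CaCo-2. Its ENST00000597618 and ENST00000601150 had input above 0 in HT-29, with folds of 2.58 and 3.58 in the authors' deposited table, while ENST00000597423 had input at 0. CHD4, a NuRD remodeller, had a processed transcript at 9.76 FPKM in RIP with input at 0 in HT-29, and another at 5.73 FPKM in RIP and 0.649 FPKM in input of CaCo-2. HDAC2 ENST00000425835, a histone deacetylase of the same complex, had 5.50 FPKM in RIP with input at 0 in CaCo-2. DAXX, a histone H3.3 chaperone, had 5.94 FPKM in RIP and 3.77 FPKM in input of CaCo-2.

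Of 11 ZNF proteins with RNA-related roles, 4 were listed in HT-29, with 6 of 9 transcripts past 2-fold, and 8 in CaCo-2, with 2 of 13. The shares of all listed transcripts, against which these and the next counts are to be read, were 56.0% for HT-29 and 40.8% for CaCo-2. In HT-29 they were ZNF207, a spindle assembly factor, ZNF239, ZNF638 and ZNF598, the ubiquitin ligase of collided ribosomes. ZNF598 had 2 retained-intron transcripts at 2.07 FPKM in RIP each, with input at 0 and at 0.000705 FPKM. ZNF207 had a retained-intron transcript at 5.79 FPKM in RIP and 3.46 FPKM in input of HT-29, below 2-fold. Of 13 KRAB ZNF genes with a described target, 2 were listed in each line, ZNF331 and ZNF496 in HT-29 cells and ZNF224 and ZNF93 in CaCo-2, with 2 of 3 transcripts past 2-fold in HT-29 cells and none past the filter in CaCo-2. Of 15 ZNF co-factors and sequence-specific regulators, which include ZNF217 and ZNF384, 8 were listed in HT-29 cells (5 of 11 transcripts past 2-fold) and 7 in CaCo-2 (4 of 8), counts near those shares. Zinc finger genes of other families, such as ZFP, ZBTB, KLF and ZSCAN, had 14 of 30 transcripts past 2-fold in HT-29 cells (46.7%) and 13 of 42 in CaCo-2 (31.0%), against 49.3% and 32.4% for ZNF transcripts and 56.0% and 40.8% for all listed transcripts.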

How the data were processed

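Nuclear RNA of 2 colon cancer lines was measured by RIP-Seq in 4 libraries. The authors deposited 1 table per line of FPKM values per Ensembl transcript, with a fold (ratio of RIP to input) and their p-values and q-values. Per the submitters' processing notes, the build was hg19 and the tools were TopHat2 2.0.8, Bowtie2, Cufflinks, Cuffdiff and CASAVA 1.4. No annotation release or strandedness is given in these sources, and sequencing depth is unknown from FPKM. RIP libraries were set against inputs with Python 3.11.15, pandas 2.3.3 and numpy 2.4.6, with a pseudocount of 1 FPKM, a minimum of 1 FPKM in 1 library and a 2-fold line. How reliable the 2-fold calls are was not tested. A limma or permutation test was not made, since each group has 1 library.

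The members and lists were chosen with earlier results of these data known. Genes were named by rule: per line the 8 highest ratios with 1 FPKM in both libraries, the 5 highest RIP levels with input at 0 and at any input, members with q at or below 0.05 and the 3 genes with most transcripts, then the shared transcripts and up to 4 members per list. ZNF746, ZNF233 and HT-29 ZNF598 were named after their values were seen. Gene names were matched to RefSeq of GRCh38.p14, used for names and chromosome alone: 95 current and 2 older symbols for HT-29, and 138 and 2 for CaCo-2. Of these, RefSeq calls ZNF702P, ZNF286B and ZNF767 transcribed pseudogenes, although the deposited class does not. Alternatives were other pseudocounts, filters, 1 transcript per gene and the deposited fold.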

Additional observations from a re-analysis of the deposited data

How the results depend on the processing

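The share of ZNF transcripts past 2-fold was 74.6% for HT-29 and 63.4% for CaCo-2 with a pseudocount of 0.1 FPKM (all listed transcripts 74.8% and 67.2%), and 62.0% and 46.2% with 0.5 FPKM (66.1% and 52.9%). With at least 1 FPKM in both libraries it was 8.33% and 4.35%, with input above 0 it was 28.0% and 14.8%, and by the authors' deposited fold 68.0% and 60.0%. Chromosome 19 minus the rest turned positive in HT-29 with a pseudocount of 0.1 (8.56 points) or 0.5 FPKM (8.02), with input above 0 (5.27), with 1 transcript per gene (7.88) and by the deposited fold (14.1). In CaCo-2 it turned positive with input above 0 (0.911) and by the deposited fold (2.33). Protein-coding minus other classes turned positive in HT-29 with 1 FPKM in both libraries (11.1), with input above 0 (12.5), with 1 transcript per gene (9.25) and by the deposited fold (5.05). In CaCo-2 it did with a pseudocount of 0.1 FPKM (0.773), with input above 0 (4.02) and by the deposited fold (6.06). The count past 2-fold in both lines was 4 with a pseudocount of 0.1 or 0.5 FPKM and 0 with 1 FPKM in both libraries. Of 60 named transcripts, 16 crossed the 2-fold line with a pseudocount of 0.1 FPKM and 10 with 0.5 FPKM, and by the authors' deposited fold 17 of those with input above 0 crossed it and 18 did not. The cause was not tested beyond what each setting changes. The tables hold part of each library, so sharing and listing depend on the authors' selection. No paired analysis was possible because each group has 1 library and the labels carry no replicate numbers.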
